A study of Mus musculus with 2 samples.

Results

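The genes described here make ribosomes: 50 genes for nucleolar processing of ribosomal RNA and for RNA polymerase I, chosen by name and found by matching each symbol to the gene rows of both count files. All 50 were present, out of 22756 gene rows. The measurement was ribosome profiling, which sequences the stretches of mRNA (footprints) that ribosomes shield from nuclease, in ileum, the distal small intestine. Animals of both groups were wild-type C57BL/6 mice on postnatal day 21, with no other genotype or agent, and the groups differed in feeding: one was fed and the other was deprived of food for 48 h. Each group was 1 library (n = 1), and the sources used here do not say how many animals it holds. A footprint count reflects the amount of an mRNA as well as its translation, and no mRNA library was analysed here. Each difference below is therefore between 2 libraries, with no replicate check and no p-value.

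Ribosomes are assembled in the nucleolus. RNA polymerase I transcribes one long precursor RNA, small nucleolar ribonucleoproteins (snoRNPs) modify it at many positions, and successive sets of assembly factors fold, cut and export it as the small and the large subunit. The demand is highest in growing and dividing cells, which in the intestine are those of the crypts, and the pathway is widely known to respond to nutrients through mTORC1 and MYC.

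Footprints of this pathway were on the whole a little fewer in the fasted library, and few of its genes stood far from equal. Of the 50 genes, 10 were lower in the fasted library, 3 were higher and 37 were neither. A gene was called higher or lower when its scaled ratio was at least 1.5-fold and the exact 95% interval of that ratio, which covers counting error only, excluded 1. Among the 11333 genes with at least 30 counts over both libraries, 17.3% were called lower and 17.3% higher (34.6% in either direction), so the 20% of these genes called lower lies near the background and is not a result about the pathway. The lower genes were Bysl, Rrp1b, Polr1e, Npm1, Polr1c, Polr1b, Heatr1, Noc4l, Mphosph10 and Noc2l, and the higher ones Wdr12, Nop10 and Imp3. The median log2 fasted/fed ratio was -0.21, beside 0.0028 over all measured genes, and 34 of the 50 ratios lay below 1. Summed over the 50 genes, the log2 ratio was -0.17 (95% interval -0.21 to -0.13). In tissue, fewer cells of a type and fewer footprints per cell cannot be told apart.

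These values use TMM scaling, which sets the typical gene near equal. Plain CPM, a count relative to its library's sum with no further factor, moves every log2 ratio by -0.32. With plain CPM 21 of the genes were lower and 0 higher, against 31.2% and 8.86% of all measured genes (40.1% in either direction), and the median was -0.53 beside -0.32 over all genes. All 10 genes that were lower with TMM were also lower with plain CPM, and 11 more joined them (Nop56, Nop58, Dkc1, Gar1, Gnl3, Utp14a, Utp20, Rrp12, Nat10, Bop1 and Noc3l). None of the 3 higher genes was called with plain CPM. The distance between the pathway and all genes, about -0.21 at the median, is necessarily the same on both scales, since every ratio moves by the same amount.

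**Figure D1:**
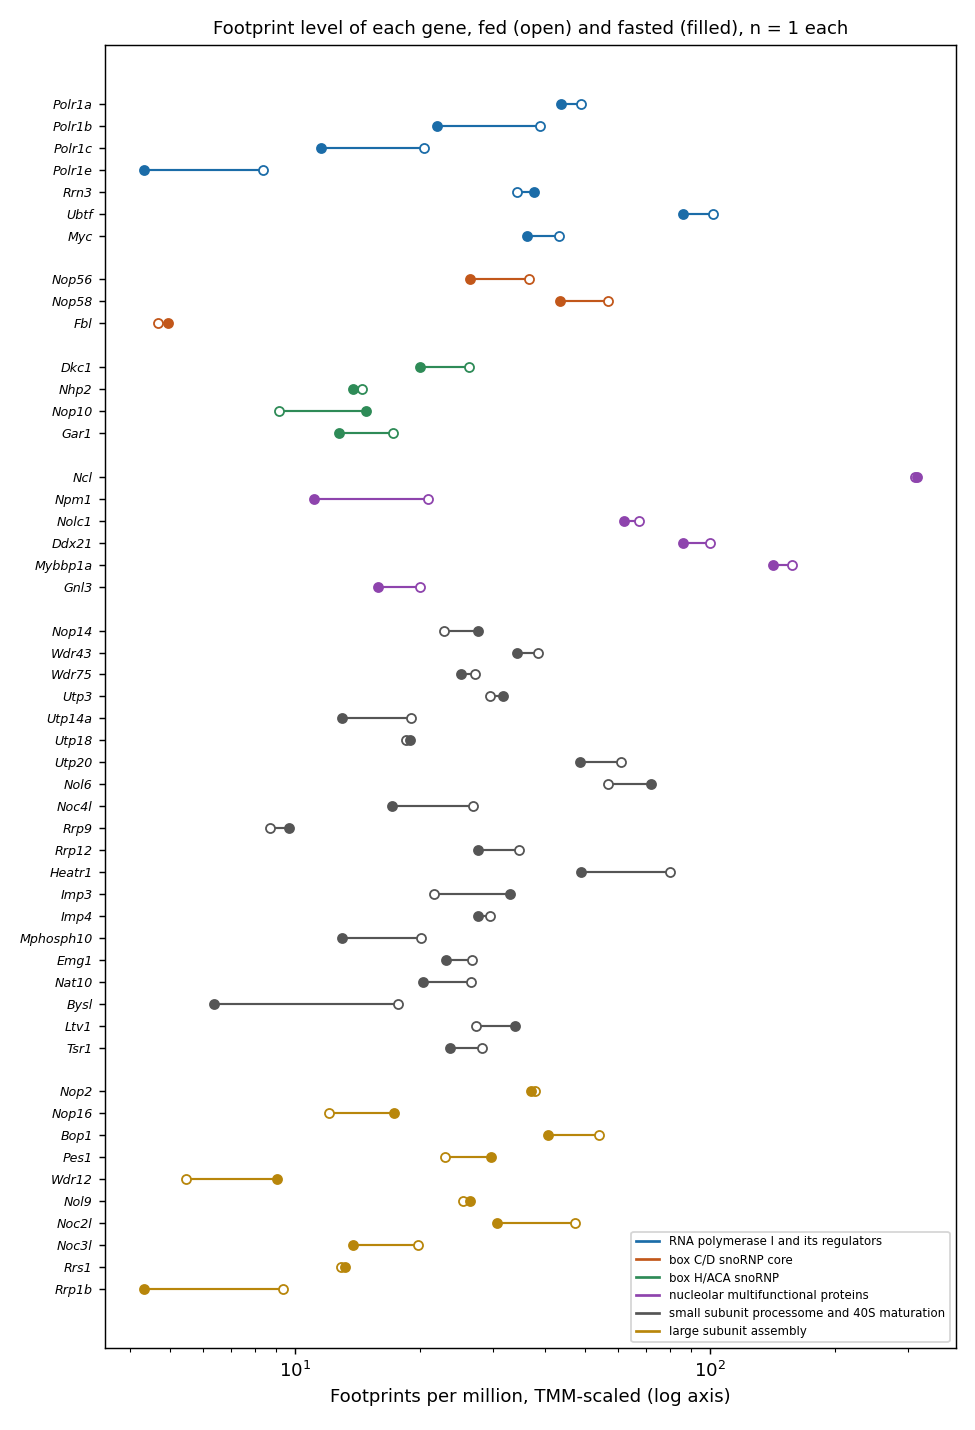
Level in CPM after TMM scaling (TMM CPM, log axis) of each of the 50 genes in the fed library (open circles) and the fasted library (filled circles), coloured by role, with 1 library each. Ncl, at 311 and 315 TMM CPM, stands to the right of all others, and Bysl has the longest line, from 17.7 down to 6.38.

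The 2 libraries held 5558620 (fed) and 5434252 (fasted) footprints assigned to genes. The 50 genes together took 12466 of the fed footprints, 0.224% (95% exact Clopper-Pearson interval 0.2203% to 0.2282%), and 8680 of the fasted ones, 0.160% (0.1564% to 0.1631%). Per gene the counts ran from 29 to 1935 in the fed library, with a median of 166.5, and from 21 to 1530 in the fasted library, with a median of 125. This depth bounds what can be said of single genes. For 20 of the 37 genes that were neither higher nor lower, the TMM interval lay wholly inside 1.5-fold, and for 17 it reached past 1.5-fold. These intervals hold counting error only and take the scaling as given, so a 1.5-fold difference is not excluded for either set. Utp20, for example, lay inside 1.5-fold with TMM and was called lower with plain CPM (-0.65). Markers of dividing cells differed much more in the same tissue: 10 of 12 were lower in the fasted library and 0 higher (median log2 ratio -1.13, and -1.46 with plain CPM), among them Mki67 with 1525 fed and 496 fasted counts. Enterocyte markers went the other way, 7 of 8 higher. Their summed counts were 0.132% of fed and 0.0473% of fasted footprints for the dividing-cell list and 2.86% and 7.26% for the enterocyte list, and none of these 20 markers was at 0. Lower levels were not particular to markers of dividing cells. Smooth muscle markers were 6 of 6 lower (median -1.18), and B and plasma cell markers 6 of 6 (-1.24). Of 5 fibroblast markers, 4 were lower and 1 higher (-1.80), and Paneth cell markers had 1 of 4 higher and 0 lower. The part that the makeup of the tissue had in the ribosome biogenesis values was not tested.

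A motif search was made in front of these genes because their best-known common activator, MYC, binds with its partner MAX to the letters CACGTG, the canonical E-box, which other factors also bind. RefSeq start sites (GRCm38.p6) gave promoter windows, from 250 bases before to 50 after each start, for 43 of the 50 genes. Windows for Myc, Fbl, Npm1, Nol6, Rrp12, Bop1 and Rrs1 were not used here. CACGTG, which reads the same on both strands, stood in 10 of 53 windows (18.9%), 1 window each for 10 genes. It stood in 9.75% of the windows of all measured protein-coding genes, whose mean GC share (60.5%) was close to that of the windows here (59.8%), and in 7.15% of all windows in the table. The sequences below are the 5 matches that lie wholly before the start site, written 5′ to 3′ on the gene's strand with the motif in capitals and its first base counted from the start site. They belong to Rrn3 (2 matches), Utp18, Imp4 and Nop2.
Rrn3, chr16:13780457-13780516, plus strand, motif from position -215: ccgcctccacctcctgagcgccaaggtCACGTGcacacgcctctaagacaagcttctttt
Rrn3, chr16:13780624-13780683, plus strand, motif from position -48: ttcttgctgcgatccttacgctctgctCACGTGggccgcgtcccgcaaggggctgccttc
Utp18, chr11:93885767-93885813, minus strand, motif from position -20: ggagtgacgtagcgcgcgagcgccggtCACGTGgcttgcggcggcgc
Imp4, chr1:34439681-34439740, plus strand, motif from position -121: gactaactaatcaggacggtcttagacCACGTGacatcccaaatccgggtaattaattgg
Nop2, chr6:125131796-125131855, plus strand, motif from position -60: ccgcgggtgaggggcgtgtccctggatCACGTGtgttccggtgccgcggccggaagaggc

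In Mybbp1a, Wdr43, Utp20, Ltv1, Tsr1 and Pes1 the motif lay just after the start. The 10 genes with the motif had a median log2 ratio of -0.060, with 0 higher and 0 lower. The 33 genes with a window but no match had a median of -0.33, with 3 higher and 9 lower. Over all measured genes 17.3% were higher and 17.3% lower (34.6% in either direction), and those genes were not split by the motif. A match is a description of these letters, not a binding site, and the difference between the 2 sets was not tested. A pyrimidine tract at the very 5′ end marks mRNAs, chiefly of ribosomal proteins, whose translation follows mTORC1. A start with C followed by 4 further pyrimidines, read on the gene's strand at the RefSeq start, was found in 1 window, that of Utp3 (1.89% of windows, beside 2.30% for measured protein-coding genes).

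RNA polymerase I and its regulators had 3 of 7 genes lower and 0 higher, at a median log2 ratio of -0.26, and all 3 were subunits of the polymerase. Beside this count, and those of every group and list below, stand 17.3% lower and 17.3% higher over all measured genes. With plain CPM these shares were 31.2% and 8.86%. Counts in groups this small describe single genes and are not a result about the group. Polr1b, the second-largest subunit, which forms part of the catalytic centre (chromosome 2, 129100995 to 129126594, mm10), had 242 fed and 107 fasted counts, or 38.9 and 22.02 TMM-scaled CPM (TMM CPM). Its log2 ratio was -0.82 (95% interval -1.16 to -0.49). Polr1c, a subunit shared with RNA polymerase III, had 127 and 56 counts (log2 ratio -0.83, -1.31 to -0.36). Polr1e, which helps the polymerase engage its template, had 52 and 21 counts (-0.95, -1.76 to -0.20). These 3 were thus lower by similar amounts, although the Polr1e call did not hold with a stricter interval (error rate 0.001 in place of 0.05).

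The largest subunit was not called. Polr1a had 304 fed and 212 fasted counts, 48.9 and 43.6 TMM CPM, and its log2 ratio of -0.16 (-0.42 to 0.093) lay wholly inside 1.5-fold. Rrn3, the factor that links the polymerase to the promoter and is regulated by mTOR, had 213 and 183 counts, 34.3 and 37.7 TMM CPM (log2 ratio 0.14, -0.16 to 0.43). Ubtf, which binds along active ribosomal DNA and opens it, had 633 and 417 counts, and its ratio of -0.25 (-0.43 to -0.066) excluded 0 and lay wholly inside 1.5-fold. Myc itself, the transcription factor that drives this gene programme, had 269 and 176 counts, 43.3 and 36.2 TMM CPM, and its log2 ratio of -0.26 (-0.54 to 0.023) included 0. With plain CPM, Myc had a ratio of -0.58, still short of the 1.5-fold limit. Outside the 50 genes, 9 further subunits and factors of RNA polymerase I were measured, of which 0 were higher and 0 lower (3 lower with plain CPM), at a median of -0.21.

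**Figure D2:**
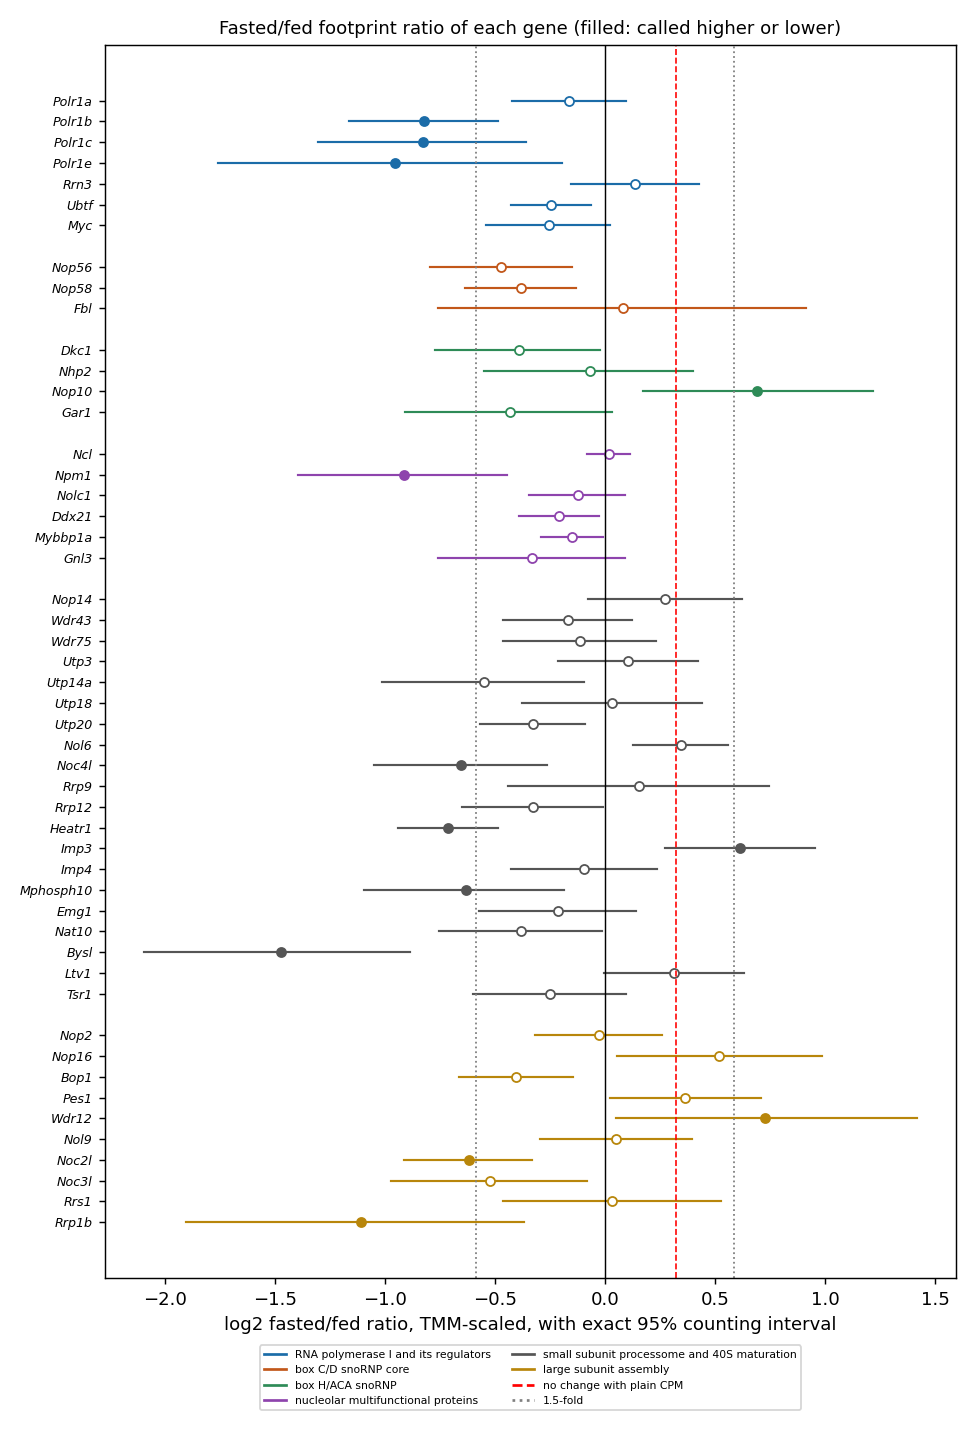
TMM-scaled log2 fasted/fed ratio of each gene with its exact 95% counting interval, coloured by role. Filled points are the 10 lower and 3 higher genes, dotted lines mark 1.5-fold, and the dashed line at 0.32 marks equal plain CPM, to the right of which 6 genes lie.

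The snoRNPs guide chemical marks on ribosomal RNA. Those of the box C/D kind add methyl groups and those of the box H/ACA kind turn uridine into pseudouridine. In the box C/D core, 0 of 3 genes were called with TMM. Nop56 had 227 fed and 128 fasted counts, 36.5 and 26.3 TMM CPM (log2 ratio -0.47, -0.80 to -0.15). Nop58 had 352 and 211 counts, 56.6 and 43.4 TMM CPM (-0.38, -0.64 to -0.13). These paired scaffold proteins were lower by like amounts, under 1.5-fold, with intervals that excluded 0, and both were called with plain CPM. For Nop56, 58.8% of the coding 28-base stretches were unique, and its exons overlap those of Idh3b on the other strand. Fbl, the methyltransferase fibrillarin, had only 29 and 24 counts. Of its coding 28-base stretches, 8.18% were unique among annotated transcripts, and a read that aligns in more than one place was given to no gene. Its ratio of 0.082 (-0.76 to 0.91) allows changes past 1.5-fold in either direction.

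In the box H/ACA snoRNP, Nop10, the smallest core protein, was higher, and its 3 partners were not called. Nop10 (chromosome 2, 112261926 to 112263269) had 57 fed and 72 fasted counts, 9.17 and 14.8 TMM CPM, a 1.62-fold higher level (log2 ratio 0.69, 0.17 to 1.22). Its coding sequence has 192 bases, the shortest of the 50, and 62.4% of its 28-base stretches were unique. Dkc1, the pseudouridine synthase dyskerin, had 163 and 97 counts (-0.39, -0.77 to -0.022), Gar1 107 and 62 (-0.43, -0.91 to 0.033) and Nhp2 90 and 67 (-0.070, -0.55 to 0.40). The Nop10 call was lost with plain CPM (0.37) and with the stricter interval.

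Among multifunctional nucleolar proteins, 1 of 6 genes was lower and 0 higher, and the genes with most footprints were nearly equal. Ncl, nucleolin, a major nucleolar RNA-binding protein, had 1935 fed and 1530 fasted counts, the most of all 50 genes, and 311 and 315 TMM CPM. Its log2 ratio of 0.017 had the narrowest interval (-0.081 to 0.11). Mybbp1a, a nucleolar protein that binds the MYB transcription factor, followed with 979 and 690 counts (-0.15, -0.29 to -0.0072). The RNA helicase Ddx21 had 620 and 419 counts (-0.21, -0.39 to -0.029), and Nolc1, a phosphoprotein chaperone of snoRNPs, had 420 and 301 (-0.13, -0.34 to 0.092). Each of these 4 intervals lay inside 1.5-fold. Gnl3, nucleostemin, a GTPase abundant in stem cells, had 124 and 77 counts (-0.33, -0.76 to 0.090).

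The exception was Npm1, nucleophosmin, a histone and ribosome chaperone that forms the outer layer of the nucleolus. Npm1 had 130 fed and 54 fasted counts, 20.9 and 11.1 TMM CPM, a 1.88-fold lower level in the fasted library (log2 ratio -0.91, -1.40 to -0.44). Only 12.1% of its coding 28-base stretches were unique, with stretches shared by 15 other genes of which 14 are annotated as pseudogenes, and the part this had in its ratio was not tested.

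Assembly factors of the small subunit were the largest group, with 4 of 20 genes lower and 1 higher at a median log2 ratio of -0.19. Bysl, bystin, which accompanies the late small-subunit precursor (chromosome 17, 47599331 to 47611492), differed most among the 50 genes. It had 110 fed and 31 fasted counts, 17.7 and 6.38 TMM CPM, a 2.77-fold lower level (log2 ratio -1.47, -2.10 to -0.89). Its exons overlap those of Ccnd3 on the other strand, and no source used here states the strand setting of the counting. Of its coding 28-base stretches 96.4% were unique on either strand, and the rest were shared with the pseudogene Gm17796 only. The overlap with Ccnd3 thus took in none of these coding stretches. Other late factors did not share this difference. Ltv1 had 170 and 165 counts (0.31, -0.0055 to 0.63), and Tsr1, which keeps immature subunits from translating, had 175 and 115 (-0.25, -0.60 to 0.097). For Tsr1 only 74.6% of the coding 28-base stretches were unique. Its exons overlap those of Srr on the other strand, the gene that shared most of the rest.

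The remaining lower genes of this group belong to the small-subunit processome, the large particle that forms on the growing precursor RNA. Heatr1, a large scaffold also needed for transcription by RNA polymerase I, had 497 and 237 counts, 79.9 and 48.8 TMM CPM (log2 ratio -0.71, -0.94 to -0.49). Its exons, too, overlap a gene on the other strand, Lgals8, but 100% of its coding 28-base stretches were unique. Noc4l had 167 and 83 counts (-0.65, -1.05 to -0.27), and Mphosph10 had 125 and 63 (-0.63, -1.09 to -0.18, a call lost with the stricter interval). Imp3, which pairs the guide RNA of the processome with the precursor, was the higher one, with 134 and 160 counts, 21.6 and 32.9 TMM CPM (0.61, 0.27 to 0.95). With plain CPM its ratio was 0.29 and not called, and 68.4% of its coding 28-base stretches were unique. Nol6 had 353 and 350 counts, and its ratio of 0.34 (0.13 to 0.56) excluded 0 in the same direction, while Utp14a, with 118 and 63 counts (-0.55, -1.01 to -0.097), and Utp20, with 379 and 236 (-0.33, -0.57 to -0.090), excluded 0 in the other.

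The other 10 small-subunit genes had TMM log2 ratios between -0.38 and 0.27, none of them called. Nat10, an RNA acetyltransferase, had 165 fed and 99 fasted counts (-0.38), and Rrp12, which helps export both subunits, had 215 and 134 (-0.33). The intervals of these 2 excluded 0 narrowly, and both genes were lower with plain CPM. Emg1, an RNA methyltransferase, had 166 and 112 counts (-0.21). Processome proteins Wdr43 with 239 and 166 counts (-0.17), Wdr75 with 169 and 122 (-0.11), Imp4 with 183 and 134 (-0.094), Utp18 with 115 and 92 (0.033) and Utp3 with 183 and 154 (0.11) lay around equal. Rrp9, a core protein of the processome's guide snoRNP, had 54 and 47 counts (0.16), and Nop14, a partner of Noc4l, had 142 and 134 (0.27). For these last 8 genes the interval included 0.

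Assembly factors of the large subunit were spread most evenly, with 2 of 10 genes lower, 1 higher and a median log2 ratio of 0.0037. Rrp1b, a nucleolar protein that recruits a phosphatase to pre-ribosomes, had 58 fed and 21 fasted counts, 9.33 and 4.32 TMM CPM, a 2.16-fold lower level (log2 ratio -1.11, -1.90 to -0.37, a call lost with the stricter interval). Noc2l had 293 and 149 counts, 47.1 and 30.7 TMM CPM (-0.62, -0.91 to -0.33). Both overlap a gene on the other strand, Hsf2bp and Samd11. Noc3l, a partner of Noc2l, had 123 and 67 counts (-0.52, -0.97 to -0.080), just under the 1.5-fold limit.

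Wdr12 was the higher gene of this group, at 34 fed and 44 fasted counts, 5.47 and 9.06 TMM CPM (0.73, 0.049 to 1.42). Nop16 had 75 and 84 counts (0.52, 0.052 to 0.99), and Pes1, pescadillo, had 143 and 144 (0.37, 0.022 to 0.71). Bop1, which with Pes1 and Wdr12 forms the PeBoW complex needed to process the large-subunit RNA, went the other way, with 335 and 198 counts (-0.40, -0.66 to -0.15). Less than 50% of the coding stretches of Wdr12 (45.1%) and Pes1 (40.8%) were unique, the exons of Wdr12 overlap those of Carf on the other strand, and the Wdr12 call was lost with plain CPM (0.40) and with the stricter interval. Nop2, an RNA methyltransferase, with 235 and 180 counts, Nol9, a kinase of RNA ends, with 158 and 128, and Rrs1 with 80 and 64 had TMM log2 ratios between -0.029 and 0.052.

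Proteins of one complex are needed together, so partners were also compared within each library, which does not depend on library scaling. For each pair of genes the count ratio in the fasted library was divided by that in the fed library, with an exact 95% interval of counting error. Of 26 pairs in 8 complexes or partnerships, 12 had an interval that excluded equality, and 4 still did at an error rate of 0.001. Among all 1225 pairs of the 50 genes, 490 (40%) and 176 (14.4%) did so, beside 46.2% and 15.4% of the partners, so partners moved apart about as often as any pair of these genes and the count is not a result about complexes. Pairs of one complex share genes, so these counts are not independent. In the Mpp10 complex the ratio of Mphosph10 to Imp3 counts was 0.933 fed and 0.394 fasted, a log2 difference of -1.24 (-1.82 to -0.67). In the H/ACA snoRNP, Dkc1 to Nop10 went from 2.86 to 1.35 (-1.08, -1.74 to -0.43). In PeBoW, Pes1 to Bop1 went from 0.427 to 0.727 (0.77, 0.33 to 1.203). Nop14 to Noc4l, whose yeast counterparts bind each other, went from 0.850 to 1.61 (0.92, 0.39 to 1.46). These are the 4 pairs that held at that rate. Exons of Pes1, Bop1, Dkc1 and Nop14 overlap a gene on the other strand. Of the coding 28-base stretches of Bop1 100% were unique, beside 40.8% for Pes1, 92.4% for Dkc1 and 96.1% for Nop14. How the counting treated reads in such overlaps is not stated, and the part they had in these ratios was not tested.

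**Figure D3:**
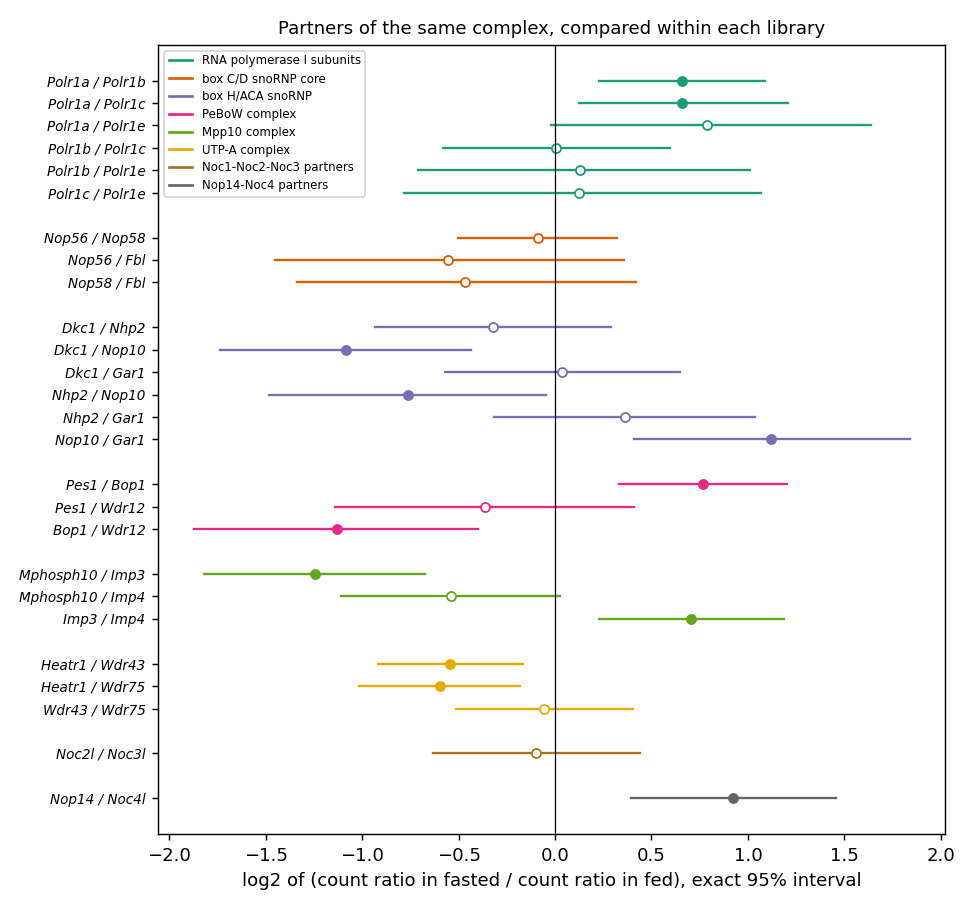
Log2 of the fasted over fed ratio of 2 partners' counts, with exact 95% intervals, for 26 pairs coloured by complex. Filled points are the 12 pairs whose interval excludes 0, and Mphosph10 to Imp3 lies furthest from it at -1.24.

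Other partners kept like proportions as far as the depth shows. Polr1b to Polr1c was 1.906 fed and 1.911 fasted (log2 difference 0.0039, -0.58 to 0.60), whereas Polr1a to Polr1b went from 1.26 to 1.98 (0.66, 0.23 to 1.09). Polr1a to Polr1c had a log2 difference of 0.66 (0.12 to 1.21). For Polr1a to Polr1e the interval included 0 (0.79, -0.019 to 1.64). Nop56 to Nop58 was 0.645 and 0.607 (-0.088, -0.50 to 0.32), and Wdr43 to Wdr75, both of the UTP-A complex that binds the start of the precursor, was 1.41 and 1.36 (-0.056, -0.51 to 0.40). Heatr1, of the same complex, did not keep step with either, and Heatr1 to Wdr43 went from 2.08 to 1.43 (-0.54, -0.92 to -0.17). The intervals of the like pairs still allow the shifts of proportion at their ends.

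Per length, the levels of these genes spanned a wide range. In TMM CPM per kilobase of coding sequence, the fed library ran from 4.30 for Rrp1b to 147 for Ncl, and the fasted library from 1.99 to 148 for the same genes. Nop10 came next in both, at 47.8 and 77.2. Ubtf (44.4 and 37.4), Ddx21 (39.1 and 33.8) and Mybbp1a (39.1 and 35.2) were close to one another in each library. Counting RNA polymerase I subunits alone, Polr1c was highest at 19.7 in the fed library, above Polr1b (11.4), Polr1a (9.49) and Polr1e (5.78), and in the fasted library Polr1c (11.1) and Polr1a (8.47) led Polr1b (6.47) and Polr1e (2.99). Which features the authors counted is not stated, so levels per coding length are approximate, and those of genes with few unique stretches are too low.

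Some of the genes carry a feature that the list did not use. Of the 50, 7 hold annotated snoRNA genes inside them on the same strand (14%), beside 189 of 10951 measured protein-coding genes (1.73%). They were Nop56, Nop58, Dkc1, Ncl, Gnl3, Wdr43 and Tsr1. Ncl for example holds Snora75 and Snord82, and Gnl3 holds Snord19 and Snord69. None of these 7 hosts was called with TMM, at a median log2 ratio of -0.33, and 4 of them were lower with plain CPM. The other 43 genes had 3 higher, 10 lower and a median of -0.16, and all 189 measured hosts had 22 higher, 45 lower and a median of -0.19.

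The spread among the genes was narrower than over all measured genes, as it was in several other lists of one function. The middle 50% of their TMM log2 ratios spanned 0.51, beside 0.88 over all measured genes and 0.84 over the 9664 genes whose summed counts lay in the same range (53 to 3465). Only Bysl and Rrp1b, 4% of the 50, reached a log2 ratio of 1 in size, beside 17.3% of all measured genes and 15.5% of those in the same count range. Both were lower by at least 2-fold with an interval that excluded 1, and 0 genes were higher by as much, beside 9.13% lower and 8.25% higher (17.4% together) among all measured genes. The middle 50% spanned a similar width in the RNA exosome (0.51), the other RNA polymerase I factors (0.48), cytosolic (0.52) and mitochondrial (0.58) ribosomal proteins, so it is not particular to the 50 genes.

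Further genes of the pathway, from lists kept apart from the 50, were described with the same call rule. Other processing factors of the small subunit had 2 of 30 measured genes lower and 1 higher at a median log2 ratio of 0.0033 (9 lower and 0 higher with plain CPM). The lower ones were Nol10 (82 fed and 35 fasted counts, -0.87) and Utp11l (172 and 85, -0.66), and the higher one was the helicase Ddx10 (140 and 174, 0.67). Other large-subunit factors had 6 of 40 lower and 4 higher at a median of -0.095 (13 lower and 1 higher with plain CPM). With TMM the log2 ratio of their summed counts was 0.15 (0.11 to 0.20), opposite in sign to that of the 50 genes. That sign rests on the scaling, since their share of assigned footprints was lower in the fasted library (0.152% fed, 0.135% fasted). Genes with many counts, such as Eif6 and Zfp622 below, weigh most in the sum. Mdn1, a giant ATPase that strips assembly factors, had 375 and 162 counts (-0.86, -1.13 to -0.59), and Nvl, another ATPase, 169 and 74 (-0.84, -1.25 to -0.43). The highest were factors of the last, cytoplasmic steps: Zfp622 with 344 and 535 counts (0.99, 0.79 to 1.19) and Eif6, which keeps the new large subunit from joining the small one, with 787 and 1151 (0.90, 0.77 to 1.04). With plain CPM Zfp622 was still called (0.67) and Eif6 was just short of the limit (0.58).

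The RNA exosome, which trims ribosomal RNA ends, had 3 of 14 genes lower and 0 higher (median -0.079, and 6 lower with plain CPM), with the nuclease Dis3 (-0.85, -1.28 to -0.44) and Exosc6 (-1.15, -2.01 to -0.35) lowest. RNA polymerase III and its factors, which make the small ribosomal RNA and tRNAs, had 2 of 21 lower and 2 higher (median -0.21, with 7 lower and 1 higher by plain CPM). Maf1, the repressor that shuts RNA polymerase III down when nutrients are short, was the highest of them, with 141 fed and 295 fasted counts (1.42, 1.13 to 1.72), and stayed called with plain CPM (1.098). Polr3e was also higher (0.69), while Polr3k (-1.16) and Gtf3c6 (-0.77) were lower. Of 3 measured subunits shared among polymerases, Polr2e was higher (137 and 181 counts, 0.76), a call that plain CPM did not give (0.43).

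The network of factors around Myc had the highest median among these pathway lists, 0.33 (0.011 with plain CPM), with 3 of 11 genes higher and 0 lower (1 higher and 1 lower with plain CPM). Max, the partner of both Myc and its antagonists, had 229 fed and 449 fasted counts (1.33, 1.09 to 1.56; 1.004 with plain CPM, still called). Mlxipl, the glucose-responsive factor ChREBP, had 323 and 457 (0.86, 0.65 to 1.07), and was not called with plain CPM (0.53).

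Ribosomal proteins, which the factors here assemble onto the RNA, differed more. Among cytosolic ribosomal proteins, 31 of 36 measured genes were lower and 0 higher (median -1.02, and -1.34 with plain CPM), beside 10 and 3 of 50 for the assembly genes (median -0.21). Mitochondrial ribosomal proteins lay close to the assembly genes, with 14 of 75 lower, 0 higher and a median of -0.23 (36 lower with plain CPM). With 1 library per condition these differences between lists could not be tested, and 30 of the 76 cytosolic ribosomal protein genes had no assigned read in either library.

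**Figure D4:**
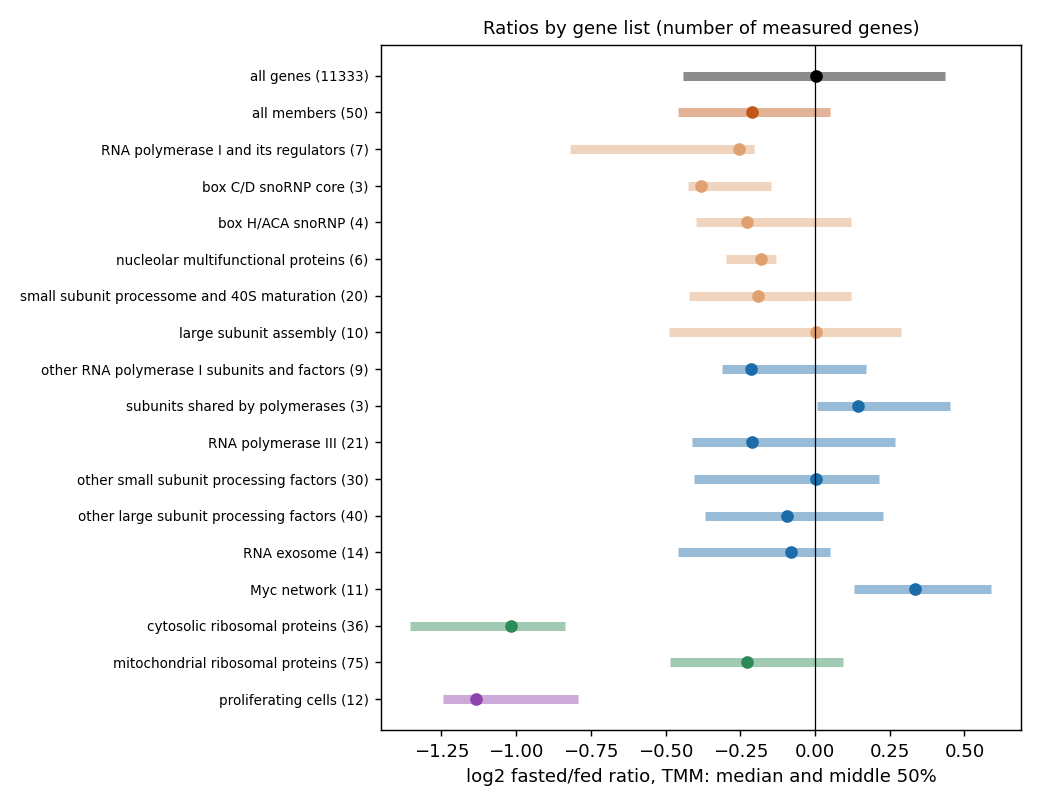
Median (point) and middle 50% (bar) of TMM-scaled log2 fasted/fed ratios for all measured genes, the 50 genes together and by role, other lists of the pathway, ribosomal proteins and markers of dividing cells, with the number of measured genes in brackets. The 50 genes lie at -0.21, near mitochondrial ribosomal proteins (-0.23) and to the right of cytosolic ribosomal proteins (-1.02) and dividing-cell markers (-1.13).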

How the data were processed

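Each library came as 1 table in which the authors deposited unnormalised read counts by gene symbol. Per the submitters' processing notes, which state neither role nor order, the build was mm10 and HTSeq, STAR, Bowtie 1.1.2 and cutadapt were used. No source used here gives the annotation, strand setting or footprint length filter. Gene rows given as NA were read as 0 counts. Reads assigned to no gene were left out of library sizes. They included reads that align to several places (41.4% of fed and 39.9% of fasted counted reads), reads on no counted feature (13.4% and 21.0%) and ambiguous reads (0.209% and 0.196%). Genes with close copies are therefore counted too low.

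Scaling used the TMM factors of edgeR 4.0.16 (R 4.3.3), and no test was run with it. Ratios carry exact 95% Clopper-Pearson intervals on the split of a gene's counts between the libraries, computed with scipy 1.17.1. The intervals treat each read as an independent count and cover counting error only. PCR copies of the same molecule are not independent, so the intervals may be too narrow even for that error. Genes needed 30 counts over both libraries, and 0.5 counts were added for list medians, while the ratios of single genes had nothing added. These functions were tested on simulated libraries with counting error only and known scaling. That checks the computation and says nothing of PCR copies, differences between animals or errors of scaling. Coordinates (1-based), coding lengths, overlapping genes and unique 28-base stretches came from GENCODE vM21 (GRCm38, the assembly of mm10), which matched 21943 of 22756 symbols and all 50 members. Uniqueness was judged among annotated transcripts, pseudogenes included, in place of the whole genome. All 50 members are accounted for, and members with at least 30 counts could be named. Of other pathway lists, up to 2 called genes in each direction were named, by the interval bound nearest to 1. The marker lists also covered crypt stem, Paneth, goblet, smooth muscle, fibroblast, B and plasma, and T cells. Their median log2 ratios were -0.66, 0.22, -0.28, -1.18, -1.80, -1.24 and -0.31, with Defa17 of the Paneth list at 0 counts in both libraries. The members and lists were chosen with earlier results of these data known, and the pairs of partners were set after the members' values were seen.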

Additional observations from a re-analysis of the deposited data

How the results depend on the processing

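Scaling by upper-quartile factors, by the size factors of DESeq2 1.42.0 and by TMM without abundant, ribosomal protein and member genes gave the same call for all 50 genes. Plain CPM gave 21 lower and 0 higher members and a median log2 ratio of -0.53, and 3536 lower and 1004 higher genes in all, against 1962 and 1956. A minimum of 200 counts, which 34 members met, left 4 lower and 1 higher, and 892 lower and 1187 higher genes in all; fewer genes were tested there. At 2-fold 2 members were lower and 0 higher. With an interval error rate of 0.001, 7 were lower and 1 was higher. The share of all measured genes called at that rate was not counted, so these counts are not a result about the pathway. Leaving out the 21 members whose exons overlap another gene, an alternative chosen after seeing the data, left 6 lower, 2 higher and a median of -0.21, since fewer genes were counted. Leaving out the 4 members with under 50% unique stretches left 9 lower and 2 higher. With no minimum count the calls were 10 and 3, which could not differ because every member had at least 53 counts in sum. With 2 counts added the median was -0.21. No alternative reversed a called gene. No paired analysis was possible because each condition had 1 library, and no library could be left out. Depth limits the genes with few counts most, as the width of their intervals shows.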
